A study of Mus musculus with 8 samples.

Results

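The immune checkpoint genes described here are 10 genes taken by symbol from the 38355 genes counted in each tumour: the ligand genes Cd274 and Pdcd1lg2, the receptor genes Pdcd1, Ctla4, Lag3, Havcr2 and Tigit, the enzyme gene Ido1, and the B7 family genes Vsir and Cd276. They were taken by name, with no threshold on their values. RNA came from whole colon tumours of 8 mice given azoxymethane, a colon carcinogen, with 1 tumour per mouse. Of these tumours, 4 had the genotype Trp53ΔIECAktE17K and 4 the genotype Trp53ΔIEC. The genotype symbol ΔIEC marks deletion in intestinal epithelial cells, here of the tumour suppressor gene Trp53, so both groups share that deletion and the carcinogen. AktE17K is a form of the kinase AKT made active by 1 substitution. The labels do not state the driver of the Akt allele, the age of the mice or the time after azoxymethane. The series title names mesenchymal colorectal cancer as the disease modelled, and the genotypes ask what active AKT adds to tumours that lack Trp53 in the epithelium. Because a whole tumour holds epithelium, stroma and leukocytes together, fewer cells of a type and less RNA per cell cannot be told apart.

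Immune checkpoints are brakes on T cells. PD-1, the product of Pdcd1, is a receptor that dampens T cell receptor signalling when it binds PD-L1 (Cd274) or PD-L2 (Pdcd1lg2) on tumour cells, macrophages or dendritic cells, and interferon-gamma released by T cells is a strong inducer of PD-L1. CTLA-4 competes with CD28 for the B7 ligands and is abundant on regulatory T cells. LAG-3, TIM-3 (Havcr2) and TIGIT are further inhibitory receptors of activated and exhausted T cells, and TIM-3 is also made by myeloid cells. IDO1 starts the breakdown of tryptophan to kynurenine, which starves and restrains T cells. In colorectal cancer, tumours with many mutations and many T cells are the ones known to respond to antibodies against PD-1.

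No checkpoint gene differed between Trp53ΔIECAktE17K and Trp53ΔIEC tumours beyond the spread between mice. All 10 genes had enough reads to be tested, and 0 of 10 passed an adjusted p of 0.05 in edgeR's quasi-likelihood test (Benjamini-Hochberg over 16539 genes), where 4.20% of all genes tested passed. At an unadjusted p under 0.05 the count was also 0 of 10, against 20.8% of all genes, and DESeq2 and limma-voom called 0 of 10 where they called 12.0% and 3.13% of all genes. Levels are given as CPM, read counts scaled to the size of the library, and fold changes on the log2 scale as Trp53ΔIECAktE17K over Trp53ΔIEC. The fold change was positive for 5 genes and negative for 5, with a median of 0.040 over the 10 genes and of 0.010 over all genes tested. The levels of the groups overlapped for each of the 10 genes, whereas 14.2% of all genes had no overlap. Levels varied between single tumours: 8 of the 10 genes spanned a wider fold range over the 8 tumours than the median gene, whose highest tumour was 2.29 times its lowest. The exceptions were Vsir and Cd276, which had the highest average log2 CPM of the 10 genes. The comparison did not match genes by level, and few reads widen such a range, as for Pdcd1lg2 with 5 to 73 reads per tumour.

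**Figure D1:**
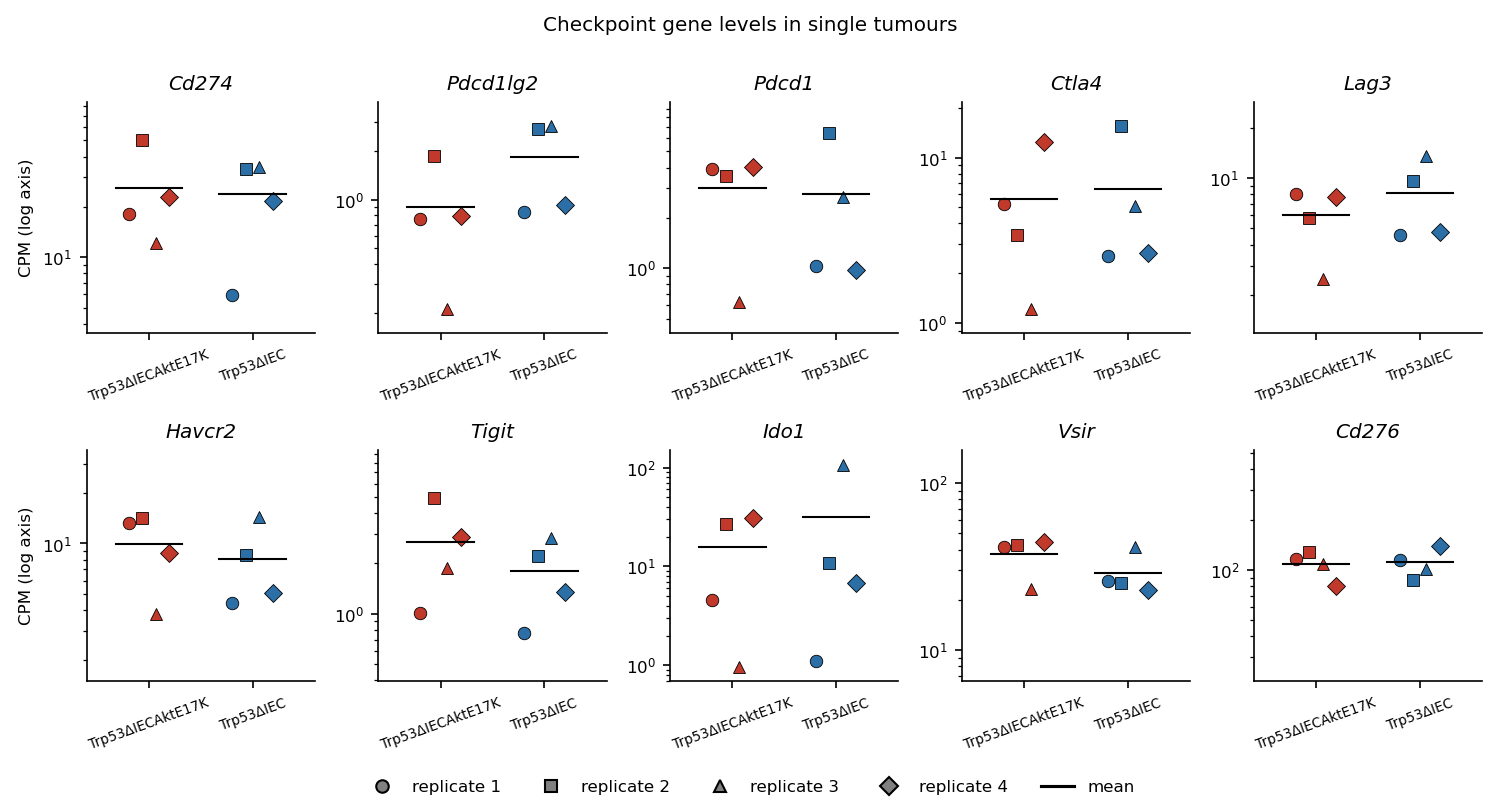
Level of each checkpoint gene in CPM (log axis) in 4 Trp53ΔIECAktE17K tumours (left, red) and 4 Trp53ΔIEC tumours (right, blue), with the replicate given by the symbol and the group mean by a line. The axes span different ranges, and the groups overlap in every panel; Ido1 has the widest spread, between 0.966 and 106.5 CPM.

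Per length of exon, which allows levels of different genes to be compared, Cd276 stood far above the others at 29.7 ± 5.58 CPM per kilobase in Trp53ΔIECAktE17K tumours and 30.3 ± 6.03 in Trp53ΔIEC tumours (SD, n = 4 each). Next came Ido1, Vsir and Cd274, whose means lay within their spread of each other. In Trp53ΔIECAktE17K tumours they had 8.66 ± 8.36, 7.55 ± 1.98 and 7.13 ± 4.64 CPM per kilobase, in the order just named, and in Trp53ΔIEC tumours 17.2 ± 27.6, 5.76 ± 1.70 and 6.60 ± 3.69. The inhibitory receptor genes were lower, with group means between 1.44 CPM per kilobase (Pdcd1, Trp53ΔIEC) and 3.85 (Lag3, Trp53ΔIEC), among them Havcr2 at 3.67 ± 1.75 in Trp53ΔIECAktE17K tumours and 2.96 ± 1.67 in Trp53ΔIEC tumours. Pdcd1lg2 was the lowest, at 0.461 ± 0.350 CPM per kilobase in Trp53ΔIECAktE17K tumours and 0.939 ± 0.563 in Trp53ΔIEC tumours, and rested on 5 to 73 reads per tumour.

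Cd274 and Pdcd1lg2, the ligand genes of PD-1, are neighbours on the plus strand of chromosome 19 in GRCm38 (mm10), at chr19:29367455-29388095 and chr19:29410919-29471161, with 22823 bases between them. Cd276, which encodes B7-H3, a B7 family protein of tumour and stromal cells with no settled receptor, lies at chr9:58524298-58555437 on the minus strand. The start regions of Cd274 and Cd276 are shown because they are the ligand gene that varied most closely with interferon-response genes and the gene that varied least, as described below. Each is 300 bases on the gene's own strand, from 250 bases before to 50 bases after the RefSeq start (GRCm38.p6), with CG dinucleotides, the sites of DNA methylation, in capitals:
Cd274, chr19:29367188-29367487, plus strand: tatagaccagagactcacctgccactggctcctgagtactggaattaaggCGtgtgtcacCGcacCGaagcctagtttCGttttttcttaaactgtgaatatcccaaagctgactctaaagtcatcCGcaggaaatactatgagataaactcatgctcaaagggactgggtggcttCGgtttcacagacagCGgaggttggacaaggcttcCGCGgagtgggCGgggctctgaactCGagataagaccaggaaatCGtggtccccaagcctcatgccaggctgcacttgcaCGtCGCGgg
Cd276, chr9:58554984-58555283, minus strand: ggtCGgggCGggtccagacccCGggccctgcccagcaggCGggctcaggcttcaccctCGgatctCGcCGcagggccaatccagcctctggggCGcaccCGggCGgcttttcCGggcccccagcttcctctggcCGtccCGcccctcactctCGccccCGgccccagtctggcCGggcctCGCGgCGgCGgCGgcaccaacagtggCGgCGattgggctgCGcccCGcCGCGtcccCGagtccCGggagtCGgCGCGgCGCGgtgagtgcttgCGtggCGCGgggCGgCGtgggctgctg

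The Cd276 window has 78.3% G and C and 39 CG dinucleotides, and 98.2% of the 32851 promoters in the RefSeq table have a lower share of G and C. The Cd274 window has 52.7% G and C, equal to the promoter median of 52.7%, and 15 CG dinucleotides against a median of 7. The table held 8 of the 10 genes and had no entry for Lag3 and Ido1. Vsir came second in G and C at 63.7% with 15 CG dinucleotides, followed by Pdcd1 at 60.7% with 5, and Pdcd1lg2, Havcr2, Ctla4 and Tigit held 46% to 41.3% G and C with 3 to 8. The core of the interferon-stimulated response element, searched as GAAA, any 2 bases and GAAA again, is in 3.44% of the promoters, and the gamma-activated sequence TTCNNNGAA in 8.30%. On both strands, the letters of neither were in the 8 windows.

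Cd274, the gene for PD-L1, had 18.0, 50.2, 12.1 and 22.9 CPM in Trp53ΔIECAktE17K replicates 1 to 4, against 5.93, 33.7, 34.5 and 21.6 CPM in Trp53ΔIEC replicates 1 to 4. The highest tumour was a Trp53ΔIECAktE17K one and the lowest a Trp53ΔIEC one, with the other 6 interleaved. The log2 fold change was 0.11 (95% interval -1.24 to 1.46, adjusted p = 0.941 by edgeR), so the data allow a fold between 0.425 and 2.75. Its sign was negative without Trp53ΔIECAktE17K replicate 2 (-0.46) and without Trp53ΔIEC replicate 1 (-0.22).

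Pdcd1lg2, the gene for PD-L2, a ligand made mostly by antigen-presenting cells, had 0.762, 1.85, 0.210 and 0.792 CPM in the Trp53ΔIECAktE17K tumours, against 0.842, 2.75, 2.85 and 0.931 CPM in the Trp53ΔIEC tumours. Replicates 2 and 3 of Trp53ΔIEC were the highest and replicate 3 of Trp53ΔIECAktE17K the lowest, while the remaining tumours overlapped. It had the most negative estimate of the 10 genes, a log2 fold change of -1.02 (95% interval -2.55 to 0.51), and the smallest unadjusted p, 0.165, with an adjusted p of 0.429 in edgeR. An antisense gene on the other strand, A930007I19Rik, spans 6412 bases of Pdcd1lg2 but shares no exon base with it, and it had 200 reads over the 8 libraries.

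Among the receptors, Pdcd1 had 3.89, 3.58, 0.630 and 4.05 CPM in the Trp53ΔIECAktE17K tumours, against 1.03, 6.39, 2.68 and 0.977 CPM in the Trp53ΔIEC tumours. In the Trp53ΔIECAktE17K group 3 tumours lay close together and replicate 3 far below them, while the Trp53ΔIEC tumours spread above and below the 3. Its log2 fold change was 0.13 (95% interval -1.57 to 1.83, adjusted p = 0.944 by edgeR). It was 0.96 without Trp53ΔIEC replicate 2, the tumour with the highest level, and negative in 4 of the 8 fits that left out a tumour, down to -0.16 without Trp53ΔIEC replicate 4.

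Ctla4 had 5.25, 3.42, 1.22 and 12.4 CPM in the Trp53ΔIECAktE17K tumours, against 2.53, 15.4, 5.08 and 2.65 CPM in the Trp53ΔIEC tumours. Each group held 1 tumour far above its other 3, which are replicate 4 of Trp53ΔIECAktE17K and replicate 2 of Trp53ΔIEC. The log2 fold change of -0.21 (95% interval -2.03 to 1.62, adjusted p = 0.916 by edgeR) became 0.70 without that Trp53ΔIEC tumour and -0.98 without that Trp53ΔIECAktE17K tumour. A processed pseudogene on the same strand, Rpl18-ps1, spans 525 bases of Ctla4 but shares no exon base with it. That pseudogene had 269 reads over the 8 libraries, against 1127 for Ctla4. Of 5 regulatory T cell markers, on whose cells Ctla4 is abundant, 4 were tested and 0 were called by edgeR, DESeq2 or limma-voom, with 0 at an unadjusted p under 0.05 in edgeR. Their score, the mean log2 CPM of the 4, was 1.95 ± 0.787 in Trp53ΔIECAktE17K tumours and 2.04 ± 0.764 in Trp53ΔIEC tumours (SD, n = 4 each), and the log2 fold changes were mixed in sign.

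Lag3, whose product binds MHC class II, had 8.04, 5.80, 2.48 and 7.73 CPM in the Trp53ΔIECAktE17K tumours, against 4.59, 9.59, 13.6 and 4.75 CPM in the Trp53ΔIEC tumours. The extremes of the Trp53ΔIEC group enclosed 3 of the 4 Trp53ΔIECAktE17K tumours, and replicate 3 of Trp53ΔIECAktE17K lay below all others. Its estimate was a log2 fold change of -0.43 (95% interval -1.54 to 0.68, adjusted p = 0.659 by edgeR).

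Havcr2 had 13.2, 14.2, 3.78 and 8.75 CPM in the Trp53ΔIECAktE17K tumours, against 4.40, 8.54, 14.3 and 5.03 CPM in the Trp53ΔIEC tumours. Both groups ran over nearly the same range, and the log2 fold change was 0.31 (95% interval -0.85 to 1.47, adjusted p = 0.774 by edgeR). Tigit had 1.02, 4.90, 1.89 and 2.89 CPM in the Trp53ΔIECAktE17K tumours, against 0.765, 2.22, 2.85 and 1.35 CPM in the Trp53ΔIEC tumours. Replicate 2 of Trp53ΔIECAktE17K was the highest and the rest overlapped, with a log2 fold change of 0.58 (95% interval -0.71 to 1.87, adjusted p = 0.607 by edgeR).

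Ido1 was the most variable checkpoint gene. It had 4.53, 26.6, 0.966 and 31.2 CPM in the Trp53ΔIECAktE17K tumours, against 1.11, 10.9, 106.5 and 6.75 CPM in the Trp53ΔIEC tumours, a span of 110-fold. A single Trp53ΔIEC tumour, replicate 3, held more Ido1 than the other 7 tumours, and each group also held a tumour near 1 CPM. The log2 fold change of -0.98 had an interval from -4.11 to 2.14 (adjusted p = 0.730 by edgeR) and became 1.31 without that tumour.

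Vsir, which encodes VISTA, a checkpoint protein found mainly on myeloid cells, had 41.6, 42.3, 23.1 and 44.4 CPM in the Trp53ΔIECAktE17K tumours, against 25.8, 25.2, 41.5 and 23.0 CPM in the Trp53ΔIEC tumours. In each group 3 tumours lay together and replicate 3 lay at the level of the other group. On the log2 scale the fold change was 0.39 (95% interval -0.22 to 1.00, adjusted p = 0.445 by edgeR), and it ranged from 0.29 to 0.59 over the 8 fits that left out a tumour. Vsir lies wholly inside Cdh23, which runs on the other strand, shares no exon base with it and had 86 reads over the 8 libraries.

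Cd276 was the most even of the 10 genes. It had 116.6, 128.2, 109.0 and 80.3 CPM in the Trp53ΔIECAktE17K tumours, against 114.4, 87.5, 101.7 and 139.5 CPM in the Trp53ΔIEC tumours, so that its highest tumour was 1.74 times its lowest. The groups covered almost the same range. Between the groups the log2 fold change was -0.030 (95% interval -0.46 to 0.40, adjusted p = 0.951 by edgeR), the narrowest interval of the 10, and it leaves room for a fold between 0.725 and 1.32.

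**Figure D2:**
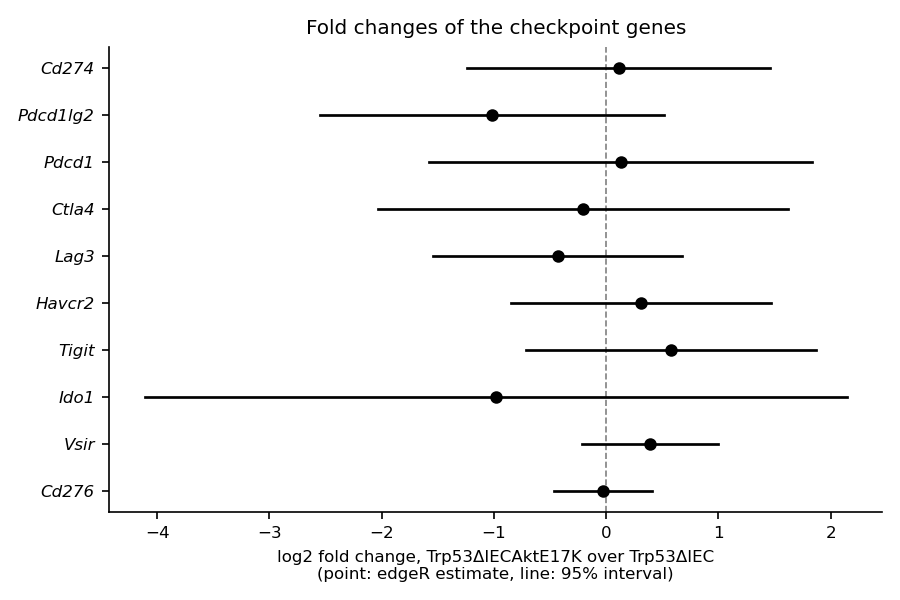
Log2 fold change of each checkpoint gene, Trp53ΔIECAktE17K over Trp53ΔIEC, as a point with its 95% interval from edgeR as a line. Each interval includes 0 (dashed line); it is narrowest for Cd276, from -0.46 to 0.40, and widest for Ido1, from -4.11 to 2.14.

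Sample titles carry the letter A in Trp53ΔIECAktE17K replicates 1 and 2 and the letter B in the remaining 6, with no statement of its meaning. Codes on the count tables carry A for every Trp53ΔIECAktE17K tumour instead, so the titles and the codes differ for replicates 3 and 4, and a fit with the title letter compares in effect Trp53ΔIECAktE17K replicates 3 and 4 with Trp53ΔIEC. With the letter as a term, 0 of 10 genes were called, and the log2 fold change changed sign for Cd274 (-0.45), Pdcd1 (-0.25), Havcr2 (-0.36) and Ctla4 (0.085).

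The same tumours were low for most of the checkpoint genes. Trp53ΔIECAktE17K replicate 3 had the lowest level of 6 genes and was among the lowest 2 tumours for 8 of the 10, and Trp53ΔIEC replicate 1 was among the lowest 2 for 6. At the other end, Trp53ΔIECAktE17K replicate 2 was among the highest 2 tumours for 5 genes, as were Trp53ΔIECAktE17K replicate 4 and Trp53ΔIEC replicate 3. High and low tumours therefore occurred in both genotypes. Among the 9 genes other than Cd276, all 36 pairs had a positive Pearson correlation of log2 CPM over the 8 tumours, between 0.28 and 0.89 with a median of 0.67, while Cd276 had a negative one with each of the 9, between -0.72 and -0.10. These correlations are a description over 8 tumours that share their library scaling, and no p is attached to them.

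Some leukocyte markers were lowest and highest in the same tumours as many of the checkpoint genes, and others were not. The T cell score, the mean log2 CPM of 16 markers such as Cd3e and Lck, ranged from -0.49 to 1.86 in Trp53ΔIECAktE17K tumours and from 0.81 to 2.89 in Trp53ΔIEC tumours, lowest in Trp53ΔIECAktE17K replicate 3 and highest in Trp53ΔIEC replicate 3. The difference of -0.78 between the group means was within the spread (two-sided exact permutation test, p = 0.371). The pan-leukocyte score of 8 markers differed by 0.017 (exact p = 1), the macrophage and monocyte score of 14 markers by 0.14 (exact p = 0.914) and the score of 19 interferon-gamma response genes by 0.033 (exact p = 0.971). The B cell score was lowest in Trp53ΔIECAktE17K replicate 2, a tumour high for many checkpoint genes, and the neutrophil score was lowest in Trp53ΔIEC replicate 1. Of 8 tested cytotoxic lymphocyte and NK markers, 1 rose by edgeR, DESeq2 and limma-voom, beside 4.20%, 12.0% and 3.13% of all genes called by these tools in that order. The median log2 fold change of the 8 was -0.11, and the markers not called ran from -1.25 for Cd7 to 1.13 for Prf1. The gene called was Gzma, a granzyme of cytotoxic cells, with 9.06, 9.22, 14.7 and 2.65 CPM in the Trp53ΔIECAktE17K tumours, against 0.230, 0.489, 0.838 and 1.95 CPM in the Trp53ΔIEC tumours. All Trp53ΔIECAktE17K tumours lay above all Trp53ΔIEC tumours (log2 fold change 3.34, adjusted p = 0.0472 by edgeR), where 14.2% of all genes had no overlap. The Gzma call was kept in 1 of the 8 fits that left out a tumour, that without Trp53ΔIECAktE17K replicate 4. None of these marker lists holds a checkpoint gene.

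**Figure D3:**
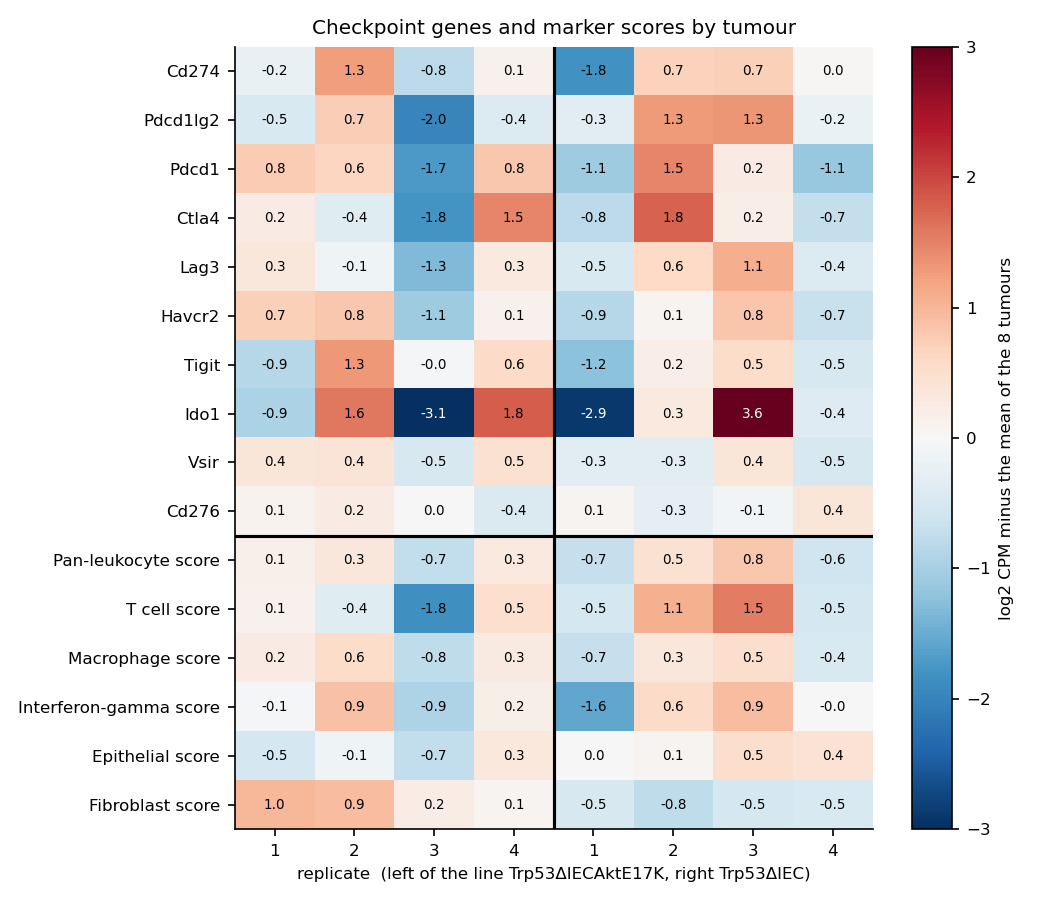
Log2 CPM of the 10 checkpoint genes (upper rows) and of 6 marker scores (lower rows) in each tumour, minus the mean of the 8 tumours, with Trp53ΔIECAktE17K left of the black line and Trp53ΔIEC right of it. Red is above and blue below the mean, and colours stop at 3 in either direction; Trp53ΔIECAktE17K replicate 3 is the lowest tumour for 6 checkpoint genes and for the T cell score, and the fibroblast score separates the genotypes.

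Relations between the 10 genes and 4 scores (T cell, macrophage and monocyte, interferon-gamma response and epithelial) gave 40 correlations over the 8 tumours, chosen after the data were seen and adjusted together by Benjamini-Hochberg. Of the 40, 7 had an adjusted p under 0.05, 1 with the T cell score, 2 with the interferon-gamma response score and 4 with the macrophage and monocyte score. The share of all genes that follow these scores as closely is not given here. The 7 relations are therefore not shown to be particular to checkpoint genes. The genes that passed with the macrophage and monocyte score were Cd274, Lag3, Havcr2 and Ido1. They passed in 1 (Lag3) to 6 (Havcr2) of the 8 runs that left out a tumour. Cd274 followed the interferon-gamma response score, with a Pearson r of 0.98 (exact permutation p = 0.000174, adjusted p = 0.00347) and a Spearman rho of 0.98 (exact permutation p = 0.000397), and r was 0.93 without the 2 tumours farthest from the median score. The score genes include Irf1, Cxcl9 and Cxcl10 and not Cd274 itself. They also include the receptor and kinase genes Ifngr1, Ifngr2, Jak1 and Jak2, and Cmtm6. After the group means were taken out, r was 0.98, so the relation was as close within the genotypes as over all tumours. Lag3 followed the T cell score, with an r of 0.98 (exact permutation p = 9.92e-05, adjusted p = 0.00347), a rho of 0.95 (exact permutation p = 0.00114) and an r of 0.94 without the 2 farthest tumours. The relations of Cd274 with the interferon-gamma response score and of Lag3 with the T cell score had an adjusted p under 0.05 in each of the 8 runs that left out a tumour.

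Ido1 also followed the interferon-gamma response score, with an r of 0.89 (exact permutation p = 0.00305, adjusted p = 0.0305), a rho of 0.90 (exact permutation p = 0.00456) and an r of 0.76 without the 2 farthest tumours. Its adjusted p was under 0.05 in 2 of the 8 runs that left out a tumour, those without Trp53ΔIECAktE17K replicate 1 or 4, and between 0.0420 and 0.0794 over all 8. No gene passed with the epithelial score. Cd276 had a negative r with the T cell score (-0.51, exact permutation adjusted p = 0.267), the interferon-gamma response score (-0.16, adjusted p = 0.708) and the epithelial score (-0.18, adjusted p = 0.705).

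On the macrophage and monocyte score the tumours fell into separate sets, 3 tumours between 4.77 and 5.09 (Trp53ΔIECAktE17K replicate 3, Trp53ΔIEC replicates 1 and 4) and 5 between 5.78 and 6.09. A pooled r for this score mostly compares the sets, so none is given for the genes that passed with it. Havcr2 was at 3.78, 4.40 and 5.03 CPM in the 3 tumours and between 8.54 and 14.3 CPM in the 5. The split was not particular to Havcr2. Lag3 was at 2.48, 4.59 and 4.75 CPM in the 3 tumours and between 5.80 and 13.6 CPM in the 5. Pdcd1 and Ctla4 were also lower in each of the 3 tumours than in any of the 5. Nor was it particular to macrophage markers, as the T cell and pan-leukocyte scores were lowest in the same 3 tumours. Cd276 was at 109.0, 114.4 and 139.5 CPM in the 3 tumours and between 80.3 and 128.2 CPM in the 5.

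**Figure D4:**
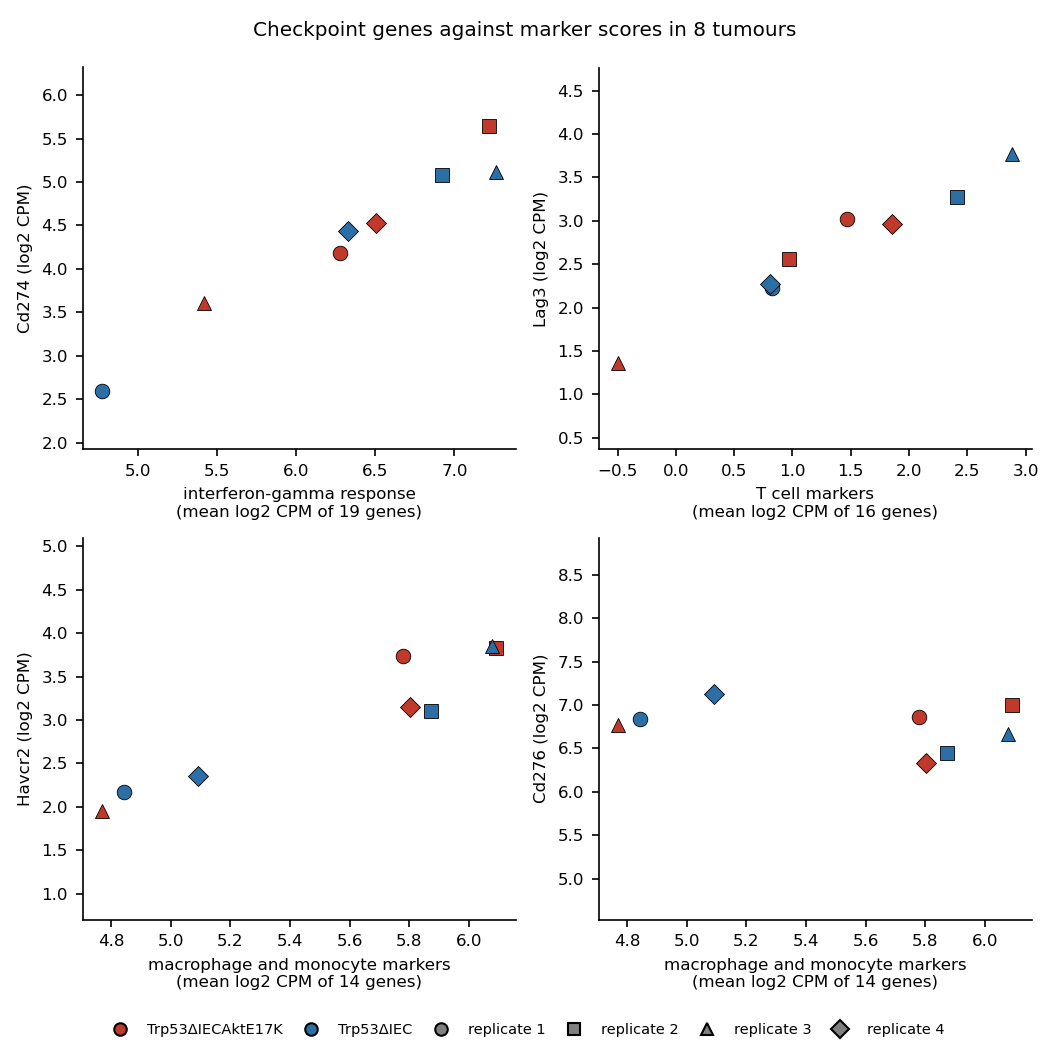
Log2 CPM of Cd274, Lag3, Havcr2 and Cd276 against marker scores (mean log2 CPM of the list named on the axis) in 8 tumours, coloured by genotype and shaped by replicate. Each vertical axis spans the same log2 distance. Cd274 and Lag3 follow their scores (r of 0.98 each), and Cd276 varies little. Havcr2 is low in the 3 tumours with low macrophage markers, which are also the lowest 3 for T cell markers and for Lag3.

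The genes whose levels over the 8 tumours were most like a checkpoint gene were searched among 13060 genes by Pearson correlation of log2 CPM, as a description. For Cd274 they were Tgtp2 (r = 0.99), Gbp4 (0.98) and Cxcl9 (0.98), which are interferon-inducible GTPase and chemokine genes. Cxcl9 had 32.2, 126.3, 12.3 and 27.5 CPM in the Trp53ΔIECAktE17K tumours, against 1.11, 81.6, 87.5 and 31.4 CPM in the Trp53ΔIEC tumours, the same highest and lowest tumours as Cd274. For Pdcd1 they included the macrophage genes Ms4a7 (0.96) and C1qb (0.96), and for Cd276 they were Fxyd3 (0.94), G2e3 (0.92) and Efcab7 (0.92). For the other genes, outside the rule, the nearest was Gpr183 for Lag3 (0.998), Ly86 for Havcr2 (0.98), Gimap6 for Vsir (0.98), Plet1 for Ido1 (0.99), Mov10 for Tigit (0.98), Atp6v0a1 for Ctla4 (0.97) and Dvl1 for Pdcd1lg2 (0.97).

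Because the tumours differed in T cell markers, each checkpoint gene was also set against them as its log2 CPM minus the T cell score. On this relative scale 0 of 10 genes had an exact permutation p under 0.05, against 5.42% of all genes tested, and the smallest p was 0.0857 for Pdcd1 and Havcr2. Relative Pdcd1 was 0.52, 0.90, 0.013 and 0.19 in the Trp53ΔIECAktE17K tumours, against -0.66, 0.29, -1.42 and -0.72 in the Trp53ΔIEC tumours. Relative Havcr2 was 2.26, 2.86, 2.45 and 1.29 in the Trp53ΔIECAktE17K tumours, against 1.34, 0.70, 0.96 and 1.54 in the Trp53ΔIEC tumours. Above the Trp53ΔIEC range lay 2 of the 4 Trp53ΔIECAktE17K tumours for Pdcd1 and 3 of the 4 for Havcr2, and the others lay inside it. The differences of 1.04 for Pdcd1 and 1.08 for Havcr2 did not pass, and 70 assignments of 8 tumours allow no p below 0.0286.

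The relative level of the other genes also had positive differences, from 0.37 for Lag3 to 1.27 for Tigit, except for Pdcd1lg2 at -0.27, and all of them share the same T cell score, which was lower on average in Trp53ΔIECAktE17K tumours. Set against the pan-leukocyte score, whose group means differed by 0.017, 0 of 10 genes had an exact p under 0.05, against 4.90% of all genes. The differences there ran from -1.07 for Pdcd1lg2 (exact p = 0.0857) to 0.47 for Tigit (exact p = 0.314). Relative Lag3 was nearly constant in Trp53ΔIEC tumours, between -2.22 and -2.08, and lay between -2.95 and -2.17 in Trp53ΔIECAktE17K tumours (exact p = 0.0857).

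The partners of the checkpoint genes were described from 8 further lists. Of 9 B7 and CD28 family partners, all tested, 0 rose and 0 fell by edgeR and limma-voom, 1 fell by DESeq2, and 1 had an unadjusted p under 0.05 in edgeR. Over all genes tested, DESeq2 called 12.0% in either direction, and 20.8% had an unadjusted p under 0.05 in edgeR. Tnfrsf14, which encodes HVEM, the receptor partner of BTLA, averaged 1.48 ± 0.875 CPM in Trp53ΔIECAktE17K tumours and 4.90 ± 2.61 CPM in Trp53ΔIEC tumours, with a log2 fold change of -1.72 (adjusted p = 0.133 by edgeR and 0.0231 by DESeq2). Btla averaged 3.45 ± 2.68 CPM in Trp53ΔIECAktE17K tumours and 9.48 ± 9.08 CPM in Trp53ΔIEC tumours (log2 fold change -1.46, adjusted p = 0.367 by edgeR). Over the 9 genes the median log2 fold change was -0.34.

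Of 13 ligands and rivals of the T cell checkpoint receptors, 11 were tested and 0 were called in either direction by edgeR, DESeq2 or limma-voom, with 2 at an unadjusted p under 0.05 in edgeR. Such an unadjusted p was reached by 20.8% of all genes. Pvr, the ligand gene of TIGIT, averaged 71.6 ± 15.8 CPM in Trp53ΔIECAktE17K tumours and 96.6 ± 7.82 CPM in Trp53ΔIEC tumours (log2 fold change -0.43, adjusted p = 0.189 by edgeR). Its levels did not overlap between the groups, as for 14.2% of all genes. Lgals9, which encodes galectin-9, a reported ligand of TIM-3, averaged 462.7 ± 133.4 CPM in Trp53ΔIECAktE17K tumours and 307.7 ± 52.9 CPM in Trp53ΔIEC tumours (log2 fold change 0.59, adjusted p = 0.193 by edgeR).

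Of 10 costimulatory genes of the TNF family, 8 were tested. By edgeR and limma-voom 0 were called, with 1 at an unadjusted p under 0.05 in edgeR, and DESeq2 called 1. Over all genes, 20.8% reached such an unadjusted p and DESeq2 called 12.0%. Tnfsf18, the gene for the ligand of GITR, averaged 12.8 ± 3.94 CPM in Trp53ΔIECAktE17K tumours and 5.25 ± 2.62 CPM in Trp53ΔIEC tumours (log2 fold change 1.28, adjusted p = 0.133 by edgeR and 0.0331 by DESeq2). Of 10 myeloid checkpoint genes, 9 were tested. Again 0 were called by edgeR and limma-voom, with 1 at an unadjusted p under 0.05 in edgeR, and DESeq2 called 1. The shares over all genes are those just given. Sirpa, the receptor gene for the signal of CD47, averaged 151.8 ± 51.3 CPM in Trp53ΔIECAktE17K tumours and 74.2 ± 25.7 CPM in Trp53ΔIEC tumours (log2 fold change 1.03, adjusted p = 0.125 by edgeR and 0.0459 by DESeq2).

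Of 20 genes in the interferon-gamma response list, 19 were tested. The list holds the receptor genes Ifngr1 and Ifngr2, the kinase genes Jak1 and Jak2 and Cmtm6 beside genes that interferon-gamma induces. Its log2 fold changes ran from -1.28 for Ciita to 1.74 for Cxcl11, both named outside the rule. By edgeR and limma-voom 0 were called, with 3 at an unadjusted p under 0.05 in edgeR, and DESeq2 called 1. Over all genes, 20.8% reached such an unadjusted p and DESeq2 called 12.0%. Ifngr2, a chain of the interferon-gamma receptor, averaged 152.1 ± 53.1 CPM in Trp53ΔIECAktE17K tumours and 273.3 ± 32.6 CPM in Trp53ΔIEC tumours (log2 fold change -0.85, adjusted p = 0.105 by edgeR and 0.0256 by DESeq2). Cmtm6, whose product keeps PD-L1 at the cell surface, averaged 144.8 ± 29.3 CPM in Trp53ΔIECAktE17K tumours and 194.0 ± 13.3 CPM in Trp53ΔIEC tumours (log2 fold change -0.42, adjusted p = 0.167 by edgeR). Ifng itself was not tested for low counts. Of 11 regulators of T cell exhaustion, 10 were tested and 0 were called by edgeR, DESeq2 or limma-voom, nor was any at an unadjusted p under 0.05 in edgeR, with Tox2 at 4.59 ± 1.68 CPM in Trp53ΔIECAktE17K tumours and 2.31 ± 1.22 CPM in Trp53ΔIEC tumours (log2 fold change 1.00, adjusted p = 0.268 by edgeR).

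Of the 8 lists, those around Ido1 and adenosine held genes called by edgeR. Of 11 genes of tryptophan uptake and breakdown other than Ido1, 10 were tested, 2 rose and 0 fell, in a comparison where 3.44% of all genes rose. Slc7a5 and Slc3a2 encode the chains of the carrier LAT1, which brings tryptophan and other large amino acids into cells. Slc7a5 had 159.4, 149.4, 231.6 and 173.2 CPM in the Trp53ΔIECAktE17K tumours, against 96.8, 101.6, 88.9 and 111.2 CPM in the Trp53ΔIEC tumours. All Trp53ΔIECAktE17K tumours lay above all Trp53ΔIEC tumours (log2 fold change 0.84, adjusted p = 0.0297 by edgeR), where 14.2% of all genes had no overlap. The Slc7a5 call was kept in 3 of the 8 fits that left out a tumour, those without Trp53ΔIECAktE17K replicate 2, 3 or 4. Slc3a2 averaged 283.5 ± 71.2 CPM in Trp53ΔIECAktE17K tumours and 152.0 ± 12.7 CPM in Trp53ΔIEC tumours (log2 fold change 0.90, adjusted p = 0.0418 by edgeR and 0.051 by limma-voom), and was called in 1 of the 8 fits, that without Trp53ΔIECAktE17K replicate 2. The 5 enzymes downstream of IDO1 in the list, named outside the rule, were not called by edgeR, DESeq2 or limma-voom, and their directions were mixed: the log2 fold change was -0.89 for Kmo, -0.59 for Kynu, 0.16 for Haao, 0.23 for Afmid and 1.23 for Qprt (adjusted p between 0.125 and 0.911 by edgeR).

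Of 5 genes of the adenosine pathway, a further brake on T cells, 1 rose and 0 fell by edgeR and by limma-voom, and 3 rose by DESeq2, beside 4.20%, 3.13% and 12.0% of all genes called by these tools in that order. Adora2b, an adenosine receptor gene, had 7.92, 5.84, 2.77 and 3.45 CPM in the Trp53ΔIECAktE17K tumours, against 0.765, 1.17, 0.391 and 0.558 CPM in the Trp53ΔIEC tumours. Its groups did not overlap, as for 14.2% of all genes (log2 fold change 2.77, adjusted p = 0.0247 by edgeR). The Adora2b call was kept in 2 of the 8 fits that left out a tumour, those without Trp53ΔIECAktE17K replicate 3 or 4. The others called by DESeq2, named outside the rule, were Adora2a, at 5.97 ± 0.979 CPM in Trp53ΔIECAktE17K tumours and 2.93 ± 0.414 CPM in Trp53ΔIEC tumours (log2 fold change 1.03, adjusted p = 0.0640 by edgeR and 0.000209 by DESeq2), and Ada, at 34.0 ± 10.5 CPM in Trp53ΔIECAktE17K tumours and 17.8 ± 2.87 CPM in Trp53ΔIEC tumours (log2 fold change 0.93, adjusted p = 0.0773 by edgeR and 0.0111 by DESeq2). With the title letter as a term the adjusted p by edgeR was 0.0507 for Slc7a5, 0.108 for Slc3a2 and 0.101 for Adora2b.

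Markers of other tissues, with calls by edgeR unless another tool is named, are given beside these calls, where 3.44% of all genes rose. In either direction, DESeq2 called 12.0% and limma-voom 3.13% of all genes, and 20.8% had an unadjusted p under 0.05 in edgeR. Fibroblast markers rose for 4 of 8 tested genes, with summed levels of 4110 to 6673 CPM in Trp53ΔIECAktE17K tumours and 2167 to 3325 CPM in Trp53ΔIEC tumours, and smooth muscle and pericyte markers for 6 of 9, with 1218 to 1844 CPM in Trp53ΔIECAktE17K tumours and 364 to 574 CPM in Trp53ΔIEC tumours. Squamous epithelium markers rose for 4 of 7, with 196 to 15376 CPM in Trp53ΔIECAktE17K tumours and 50.9 to 233 CPM in Trp53ΔIEC tumours, but for 0 of 7 by limma-voom. Of the genes called, Krt6a kept the edgeR call in 4 of the 8 fits that left out a tumour, and Krt5, Trp63 and Krtdap in 1 or 2. Vascular endothelial markers were called for 0 of 7 by edgeR and limma-voom and for 3 of 7, all higher, by DESeq2, with 5 of 7 higher at an unadjusted p under 0.05 in edgeR and summed levels of 175 to 356 CPM in Trp53ΔIECAktE17K tumours and 97.2 to 208 CPM in Trp53ΔIEC tumours. Epithelial markers, of which none was at 0 in all libraries, summed to 5953 to 11149 CPM in Trp53ΔIECAktE17K tumours and 9666 to 12116 CPM in Trp53ΔIEC tumours. They were called for 0 of 9 by edgeR and limma-voom and for 1 of 9, lower, by DESeq2, with 4 of 9 lower at an unadjusted p under 0.05 in edgeR. Their score differed by -0.53 between the groups (two-sided exact permutation test, p = 0.114). Heart muscle markers rose for 7 of 9, and Myh6, a heart myosin, stood at 47.6 to 57.0 CPM in the 4 Trp53ΔIECAktE17K libraries and at 0 to 0.223 CPM in the 4 Trp53ΔIEC libraries. Among 9 tested hepatocyte markers Crp fell, with 0 to 0.0423 CPM in Trp53ΔIECAktE17K libraries and 4.80 to 5.64 CPM in Trp53ΔIEC libraries. DESeq2 called 3 of the 9, all lower, and limma-voom 1. At an unadjusted p under 0.05 in edgeR, 4 of the 9 were lower and 1 was higher. The part of these tissues in the values of Slc7a5, Slc3a2, Adora2b, Gzma and the checkpoint genes was not tested.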

How the data were processed

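RNA was extracted with a column kit and sequenced from libraries of polyadenylated RNA that do not record the strand, per the labels' protocols. The deposited values are raw counts of reads per Ensembl gene. Tools named in the submitters' processing notes, with no role stated, are DESeq2 1.8.1, HTSeq 0.6, SAMtools 1.2, STAR 2.3.0 and CASAVA 1.8.2, and the build is mm10. Totals were 18572180 to 26268547 assigned reads per tumour. Symbols and positions came from GENCODE M21, which held 36602 of 38355 identifiers (95.4%), and 5 closing lines per table were set aside (reads in no feature came to 9.74% to 11.7%).

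Differences were tested with edgeR 4.0.16 in R 4.3.3 (filterByExpr, TMM, robust quasi-likelihood F-test, group as the only term, Benjamini-Hochberg over 16539 genes), first tested on simulated data. CPM are counts relative to the TMM-scaled library, and log2 CPM used a prior count of 2. DESeq2 1.42.0, limma-voom (limma 3.58.1), other scalings, no filter, the replicate block, the title letter and leaving out each tumour were alternatives. No libraries were duplicates, and no tumour was left out of the main tests. Exact permutation tests were two-sided. The P-values apply to variation between mice, and reads without molecular identifiers are not independent molecules.

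The members and lists were chosen with earlier results of these data known. All 10 members are named, and from each list up to 4 called genes were eligible by adjusted p, or, with none called, 2 by unadjusted p. For Cd274, Pdcd1 and Cd276, the 3 genes of highest correlation were eligible, and some genes the rule selects are left out of the text. A few enzyme genes entered by mistake in the list of receptor ligands were taken out after the data were seen.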

Additional observations from a re-analysis of the deposited data

Results flagged for a closer look

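Within the groups of 4 tumours, 5 of the 50 groups examined (25 genes) had a tumour that stood far from the other 3, and chance flags about 1 in 20 groups. In Trp53ΔIECAktE17K tumours, replicate 3 was low for Pdcd1, at 0.630 CPM against 3.58 to 4.05 CPM in the other 3, and for Vsir, at 23.1 CPM against 41.6 to 44.4 CPM. In Trp53ΔIEC tumours, replicate 3 was high for Ido1, at 106.5 CPM against 1.11 to 10.9 CPM in the other 3, and for Vsir, at 41.5 CPM against 23.0 to 25.8 CPM. In Trp53ΔIEC tumours, replicate 2 was high for Slc3a2, at 170.9 CPM against 143.0 to 147.3 CPM. The T cell and pan-leukocyte scores were lowest in Trp53ΔIECAktE17K replicate 3 and highest in Trp53ΔIEC replicate 3 of all 8 tumours, and their part in the values of Pdcd1, Vsir and Ido1 was not tested.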

How the results depend on the processing

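No checkpoint gene was called under any of the 15 alternatives. Of 150 log2 fold changes under them, 134 kept their sign, and the smallest adjusted p was 0.183. The sign of Pdcd1lg2, Lag3, Tigit and Vsir held under all 15. Leaving out a tumour gave log2 fold changes of -0.46 to 0.36 for Cd274, -0.16 to 0.96 for Pdcd1, -0.98 to 0.70 for Ctla4, -1.56 to 1.31 for Ido1 and -0.14 to 0.095 for Cd276. With the title letter as a term, the values were -0.45 for Cd274, -0.25 for Pdcd1, 0.085 for Ctla4 and -0.36 for Havcr2. No sign of pairing by replicate number was seen: deviations of same-numbered tumours correlated at -0.039, 0.0083, -0.24 and 0.0093, and none of the 4 Trp53ΔIECAktE17K tumours correlated best with its own number. With the replicate block, Slc7a5, Slc3a2 and Adora2b were not called (adjusted p by edgeR 0.116, 0.140 and 0.0525), 50 genes were called (48 higher and 2 lower), 0 of them checkpoint genes, and the log2 fold change of Ido1 was 0.78.

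The count of all genes called, 694 (569 higher, 125 lower), was 2479 with DESeq2 (1715 higher, 764 lower), 96 with the title letter (90 higher, 6 lower), and 74 to 949 when a tumour was left out. Other scalings moved the median of all genes by at most 0.020. Leaving out a tumour gave 0 to 2 genes relative to T cell markers with an exact p under 0.05: Tigit without Trp53ΔIECAktE17K replicate 1, Havcr2 without Trp53ΔIECAktE17K replicate 4, and Pdcd1 and Ctla4 without Trp53ΔIEC replicate 2, all higher in Trp53ΔIECAktE17K. Relative to pan-leukocyte markers it gave 0 to 2: Lag3 (lower) and Tigit (higher) without Trp53ΔIECAktE17K replicate 1, and Pdcd1lg2 (lower) without Trp53ΔIECAktE17K replicate 2. Each had an exact p of 0.0286, the smallest that 7 tumours can give, and in the same runs 2.59% to 6.53% of all genes passed relative to T cell markers and 3.13% to 4.86% relative to pan-leukocyte markers. The cause of these changes was not tested. Pdcd1lg2 rests on few reads.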
